A study of Mus musculus with 6 samples.

Results

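The protein coat of the adipocyte lipid droplet was followed through 8 genes, chosen by symbol and found among the 46517 Ensembl genes of the count tables of inguinal white adipose tissue (IngWAT). They encode the 5 perilipins (*Plin1* to *Plin5*), the droplet fusion protein *Cidec*, and *Bscl2* (seipin) and *Fitm2*, which act where droplets are born. All 8 passed the filter on low counts. The samples were 3 floxed and 3 H3atKO libraries, each of RNA pooled from a few mice of 1 genotype. The mice were of the C57Bl6 strain according to the labels, 5 to 9 months old and fed chow. Both groups carry the floxed *Hdac3* allele, and the H3atKO mice also carry an *Adipoq*-cre transgene that deletes it. The adiponectin promoter drives this Cre in mature adipocytes, so that the other cells of the tissue keep *Hdac3*.

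A fat droplet is a core of triglyceride under a phospholipid monolayer, and perilipins sit on that monolayer and control which lipases reach the core. *Plin1* is the perilipin of the large droplet of white adipocytes, *Plin4* coats small nascent droplets in adipocytes, *Plin2* covers droplets in almost any cell that stores lipid, *Plin3* moves onto droplets from the cytosol, and *Plin5* belongs to tissues that burn fat, such as brown fat, heart and oxidative muscle. *Cidec* lets droplets exchange lipid until 1 large droplet remains, seipin organizes the site in the endoplasmic reticulum (ER) from which droplets bud, and *Fitm2* is an ER protein needed for normal budding.

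Reads on genes numbered from 23865507 to 35200685 per library, and a count of 3 equals 0.0852 to 0.126 cpm (counts scaled to the total of the library), a floor for counting error only. *Hdac3*, the targeted gene, was at 65.8 to 80.3 cpm in floxed and at 12.9 to 27.4 cpm in H3atKO libraries. Genes of the mitochondrial genome took 6.92 to 12.9% of the reads on genes in floxed and 26.9 to 35.3% in H3atKO libraries. In H3atKO libraries genes of high GC content read lower as a whole. Over all tested genes, the lowest decile of GC content had a median of 1.13 on the log2 scale (H3atKO against floxed) and the highest one of -2.19, and an effect of GC content on the reads and an effect of genotype cannot be told apart here. Values after a GC correction, in which each library's smooth trend with GC content was subtracted, are therefore given beside the uncorrected ones. Adipocyte identity was present in every library: all 15 mature adipocyte markers were detected, with a summed level of 40540 to 61738 cpm in floxed and 50951 to 117460 cpm in H3atKO libraries. *Lpl* made up much of the H3atKO sum (39849 against 9235 cpm in the means). Of the 15, limma voom at an adjusted p under 0.05 called *Lpl* higher and *Cfd* lower, against 9.42% and 7.07% of all tested genes. *Cfd* went from 3101 to 163 cpm in the means (log2 fold change -3.99, limma, adjusted p = 0.0223). The median log2 fold change of the 15 markers, which include *Plin1* and *Cidec*, was -0.39. Floxed replicate 3 stood apart from the other 2 floxed libraries, with 8972 cpm of 8 stromal progenitor markers against 2140 and 2290, and 2551 cpm of 10 macrophage markers against 458 and 624. Results are therefore also given without it. In bulk tissue, fewer cells of a type and less RNA per cell cannot be told apart.

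The composition of the perilipin mRNAs differed between the genotypes in every library. *Plin4* was the leading perilipin in all 3 floxed libraries and *Plin2* in all 3 H3atKO libraries, when levels were expressed in cpm per kilobase of exon. The length was that of all annotated exons of a gene together. It was 3512 bp for *Plin2* and 5777 bp for *Plin4*, where the longest transcripts have 1888 and 5756 bp. The size of the shares depends on this choice of length. Of the summed perilipin level, *Plin4* made up 74.2, 80.6 and 64.6% in the floxed libraries (replicates 1, 2 and 3, an order kept below) and 9.88, 18.6 and 15.8% in the H3atKO libraries. *Plin2* made up 15.6, 11.98 and 26.6% of it in floxed and 79.7, 66.6 and 55.9% in H3atKO libraries. *Plin5* was a minor component in both, at 1.42, 0.734 and 1.43% in floxed and 5.89, 7.43 and 9.44% in H3atKO libraries. The groups did not overlap in the share of any of these 3 genes. The shares of a library add up to the whole, so that a lower share of *Plin4* by itself raises the others. By level in cpm, the groups were apart for *Plin4* and overlapped for *Plin2* and *Plin5*. By level, 23.3% of all tested genes lay above and 28.5% below in every H3atKO library. The shares overlapped for *Plin1* (6.48% ± 1.61 against 8.62% ± 6.62, SD, n = 3 each) and for *Plin3* (1.13% ± 0.926 against 1.64% ± 1.02, SD, n = 3 each).

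Such a share is a ratio within 1 library and does not depend on how libraries were scaled. The mean share was 73.1% ± 8.05 in floxed against 14.8% ± 4.46 in H3atKO for *Plin4*, 18.1% ± 7.62 against 67.4% ± 11.9 for *Plin2*, and 1.20% ± 0.400 against 7.59% ± 1.78 for *Plin5* (SD, n = 3 each). For each of them a two-sided exact permutation test gave p = 0.1, the smallest p that 3 libraries against 3 allow, so that this test could not reach 0.05. After the GC correction the shares were 69.7% ± 7.05 against 17.1% ± 5.28 for *Plin4*, 22.4% ± 6.07 against 59.6% ± 17.0 for *Plin2* and 0.941% ± 0.458 against 10.95% ± 3.97 for *Plin5* (SD, n = 3 each), again without overlap. Without floxed replicate 3 the difference was -62.6 percentage points for *Plin4*, 53.6 for *Plin2* and 6.51 for *Plin5*. These shares were computed after the values had been seen.

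**Figure D1:**
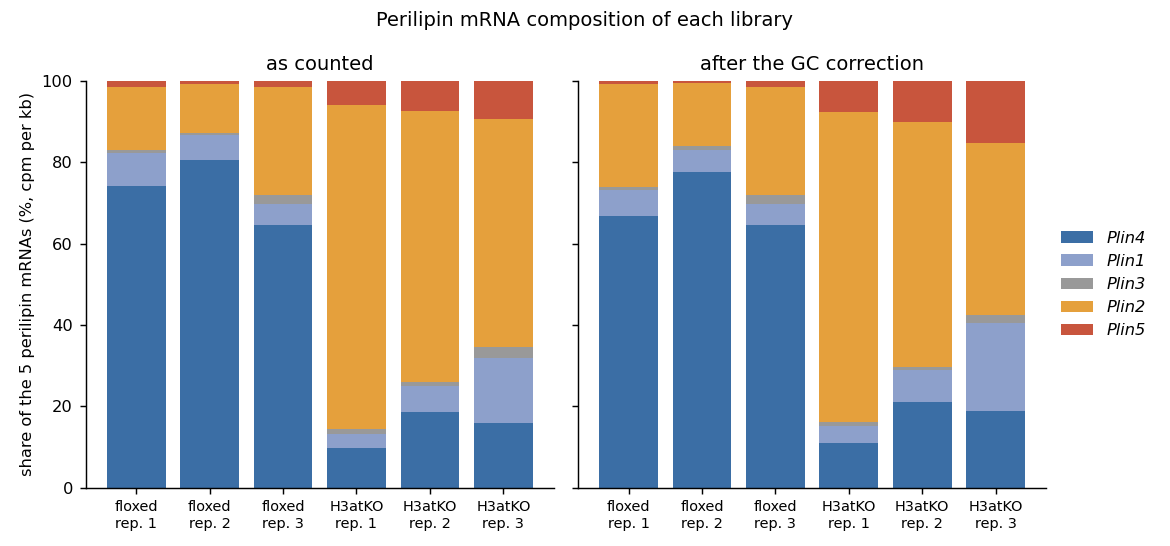
Share of each perilipin in the summed perilipin mRNA level of each library (percent, from cpm per kilobase of exon), as counted and after the GC correction. *Plin4* fills 64.6 to 80.6% of the floxed bars and 9.88 to 18.6% of the H3atKO bars, and *Plin2* 11.98 to 26.6% and 55.9 to 79.7%.

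Across all tested genes, limma voom at an adjusted p under 0.05 called 1 of the 8 genes lower in H3atKO, *Plin4*, and 0 higher. Of 14967 tested genes it called 7.07% lower and 9.42% higher. At an unadjusted p under 0.05, limma had 3 of the 8 lower (*Plin3*, *Plin4* and *Bscl2*) and 0 higher, against 23.4% and 20.4% of all tested genes. At an adjusted p under 0.05, neither edgeR nor DESeq2 called any of the 8 higher. edgeR called *Plin4* lower, with 18.4% of all genes called lower and 12.8% higher, and DESeq2 called *Plin1*, *Plin4* and *Bscl2* lower, with 23.2% and 19.7%. The median log2 fold change of the 8 genes was -0.95, against -0.09 for all tested genes. Blocked on the replicate number that libraries of both genotypes share in their labels, the same test called 4 lower (*Plin3*, *Plin4*, *Cidec* and *Bscl2*) and 1 higher (*Plin5*), against 28.7% and 24.8% of all tested genes. After the GC correction it called *Plin4* lower and *Plin5* higher, against 3.06% and 5.55% of all tested genes, and the median of the 8 genes was 0.27. Under the block plus the GC correction, *Plin4* was lower and *Plin2* and *Plin5* were higher, against 9.7% and 13.1%. Without floxed replicate 3 and without the block, limma called *Plin1*, *Plin4*, *Cidec* and *Bscl2* lower, against 25.9% of all tested genes. Leaving out 1 other library, it called *Plin4* alone without H3atKO replicate 2 (0.93% of all genes lower) and none of the 8 lower without H3atKO replicate 1 (0.317%), H3atKO replicate 3 (0.134%), floxed replicate 1 (0.611%) or floxed replicate 2 (0%). With sample quality weights it called 5 lower and 1 higher, against 29.7% and 26.7%, and with library sizes alone as the scaling 5 lower and 0 higher, against 37.9% and 2.04%. At an adjusted p under 0.1, limma without the block called 2 lower, *Plin4* and *Bscl2*, against 21.3%.

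**Figure D2:**
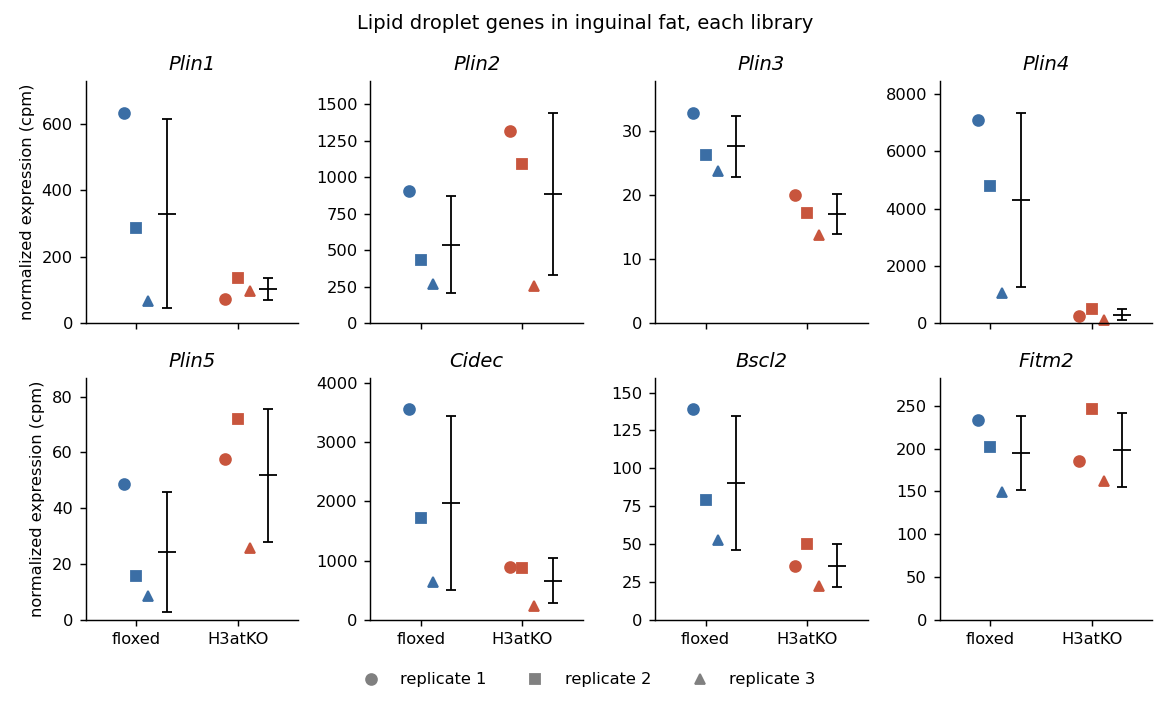
Normalized expression (cpm of the TMM-scaled library, linear axes from 0) of the 8 genes in each library, with symbols for the replicate number and the mean ± SD of 3 libraries in black. The groups are apart for *Plin3*, *Plin4* and *Bscl2*, all lower in H3atKO, and overlap for the other 5 genes. Of all tested genes, 28.5% are lower in every H3atKO library.

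*Plin4* fell in H3atKO IngWAT. The gene (ENSMUSG00000002831) occupies 56100591 to 56109803 of chromosome 17 (GRCm38). Its level was 7073, 4795 and 1064 cpm in floxed and 267, 499.5 and 119 cpm in H3atKO libraries, and every H3atKO library was below every floxed one, as it was for 28.5% of all tested genes. The mean was 4310 ± 3034 cpm in floxed and 295 ± 192 cpm in H3atKO (SD, n = 3 each). The limma estimate was -3.72 on the log2 scale (SE 0.77, 95% interval -5.51 to -1.92, adjusted p = 0.0293). In floxed libraries it ranked 13th of 14967 genes by mean cpm, and in H3atKO libraries 459th. The log2 fold change was -2.22 after the GC correction (adjusted p = 0.0464) and -4.53 without floxed replicate 3 (adjusted p = 0.00585). Leaving out any 1 library kept it between -4.53 and -3.16. Its limma call was lost without H3atKO replicate 1 (adjusted p = 0.0751), H3atKO replicate 3 (0.0987), floxed replicate 1 (0.0756) or floxed replicate 2 (0.115).

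*Plin5* lies on the same strand, 1797 bp from *Plin4* (ENSMUSG00000011305, chromosome 17, 56111601 to 56117596). It was at 48.9, 15.8 and 8.53 cpm in floxed and at 57.6, 72.0 and 25.6 cpm in H3atKO libraries. Floxed replicate 1 was above H3atKO replicate 3, so that the groups overlapped, while within each replicate number the H3atKO library was the higher one. The limma estimate was 1.35 on the log2 scale (SE 0.66, 95% interval -0.20 to 2.89, adjusted p = 0.152), and with the replicate block it was 1.28 (adjusted p = 0.0394). Without floxed replicate 3 it was 0.79 (adjusted p = 0.295). *Plin5* has the highest GC content of the 8 genes, 58.9% in its longest transcript, above 94.4% of the tested genes. GC-corrected, *Plin5* rose by 3.45 on the log2 scale (SE 0.27, adjusted p = 0.00787 in limma), and every H3atKO library was above every floxed one, as for 20% of all tested genes. After that correction *Fitm2* was also above in every H3atKO library, and *Plin3* and *Plin4* were below, as for 19% of all tested genes.

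As neighbours, with a GC content of 55.9% and 58.9%, *Plin4* and *Plin5* were also set against each other within each library. The log2 ratio of *Plin5* to *Plin4* counts was -7.18, -8.25 and -6.96 in floxed and -2.21, -2.79 and -2.21 in H3atKO libraries. The ratio was thus 33.3-fold higher in H3atKO by the means on the log2 scale, and 50.8-fold higher after the GC correction, with p = 0.1 in the exact permutation test both times. The corresponding log2 ratio of *Plin2* to *Plin4* was -2.81 ± 0.748 in floxed and 1.51 ± 0.683 in H3atKO libraries (SD, n = 3 each), a difference of 4.32, or 3.49 after the GC correction (exact permutation p = 0.1 each). These ratios were chosen after the values had been seen.

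The promoter windows of *Plin2*, *Plin4* and *Plin5* are shown because these 3 genes carry the difference in composition. They are RefSeq windows on GRCm38.p6, from 250 bases before to 50 bases after an annotated start, on the gene's strand, and capitals mark AGGTCA on either strand (TGACCT when read on the other), the half-site bound by many nuclear receptors. The windows are chr4:86670010-86670309 for *Plin2*, chr17:56109733-56110032 for *Plin4* and chr17:56117499-56117798 for the upstream start of *Plin5*, all on the minus strand.
Plin2: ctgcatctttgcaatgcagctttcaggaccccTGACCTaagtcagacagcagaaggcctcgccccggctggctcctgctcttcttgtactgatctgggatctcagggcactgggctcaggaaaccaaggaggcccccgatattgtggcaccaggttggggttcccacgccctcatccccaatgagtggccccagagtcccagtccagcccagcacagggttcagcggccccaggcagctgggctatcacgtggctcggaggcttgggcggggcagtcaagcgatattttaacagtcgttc
Plin4: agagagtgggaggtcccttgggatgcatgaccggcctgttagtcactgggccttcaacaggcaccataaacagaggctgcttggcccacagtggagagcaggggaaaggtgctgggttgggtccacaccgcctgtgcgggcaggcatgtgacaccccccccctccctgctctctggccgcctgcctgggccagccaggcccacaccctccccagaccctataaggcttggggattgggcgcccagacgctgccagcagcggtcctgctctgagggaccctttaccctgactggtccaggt
Plin5: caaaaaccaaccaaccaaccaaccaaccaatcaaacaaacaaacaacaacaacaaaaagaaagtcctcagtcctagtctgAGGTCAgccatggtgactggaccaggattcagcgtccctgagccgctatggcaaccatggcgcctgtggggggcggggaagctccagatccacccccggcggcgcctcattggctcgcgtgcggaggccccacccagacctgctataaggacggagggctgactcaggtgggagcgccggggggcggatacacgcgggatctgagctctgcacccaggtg

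*Plin2* has AGGTCA 1 time, from 218 bases before the start, and the upstream window of *Plin5* has it 1 time, from 170 bases before it. A second RefSeq window of *Plin5* also has it, from 13 bases after the start. The *Plin4* window has none. Of the 8 genes, all with a window, AGGTCA was present for 3 (*Plin2*, *Plin5* and *Bscl2*) and in 4 of the 12 windows of the 8 genes, against 16.3% of 32851 windows of all genes. The direct repeat AGGTCANAGGTCA, searched on both strands, was in none of the 12 windows and in 0.0396% of all windows. CCAAT was in 5 of the 12 windows against 37.4% of all windows, and TATAAA in 0 against 13.6%, both strands searched. A match describes the letters of the window only.

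*Plin2* (ENSMUSG00000028494, chromosome 4, 86648386 to 86670060) was at 906, 433 and 267 cpm in floxed and at 1312, 1086 and 255 cpm in H3atKO libraries. H3atKO replicates 1 and 2 were the highest of the 6 libraries and H3atKO replicate 3 the lowest. The limma estimate was 0.59 on the log2 scale (SE 0.69, 95% interval -1.03 to 2.21, adjusted p = 0.524). GC-corrected, the estimate was 1.26 (adjusted p = 0.187), and with the block as well it was 1.23 (95% interval 0.47 to 1.98, adjusted p = 0.0408). Per kilobase, *Plin2* exceeded *Plin4* in 0 of 3 floxed and 3 of 3 H3atKO libraries.

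*Plin1* (ENSMUSG00000030546, chromosome 7, 79720218 to 79732903) was at 634, 288 and 68.3 cpm in floxed and at 74.4, 138 and 97.0 cpm in H3atKO libraries. The floxed libraries were spread far wider than the H3atKO ones, from the highest value of all 6 libraries to the lowest, which was floxed replicate 3. In limma voom the fit put *Plin1* at -1.22 on the log2 scale (SE 0.74, 95% interval -2.94 to 0.51, adjusted p = 0.229). Without floxed replicate 3 it was -2.09 (adjusted p = 0.00996), and with the GC correction it was 0.51 (95% interval -0.70 to 1.72, adjusted p = 0.522). The direction for *Plin1* therefore turned with the GC correction.

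*Plin3* (ENSMUSG00000024197, chromosome 17, 56277476 to 56292873), which lies 159879 bp from *Plin5*, had the lowest mean level per kilobase of the perilipins in both genotypes, though in floxed replicate 3 *Plin5* was lower. It was at 32.9, 26.3 and 23.7 cpm in floxed and at 19.97, 17.3 and 13.8 cpm in H3atKO libraries. Every H3atKO library was lower, as for 28.5% of all tested genes. None of the 8 genes lay above in every H3atKO library before the correction, as 23.3% of all tested genes did. In limma voom the fit put *Plin3* at -0.68 on the log2 scale (SE 0.29, adjusted p = 0.109), with the replicate block -0.70 (adjusted p = 0.0227) and after the GC correction -0.23 (95% interval -0.67 to 0.20, adjusted p = 0.414).

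Droplet fusion was represented by *Cidec* (ENSMUSG00000030278, chromosome 6, 113424634 to 113435760). It was at 3556, 1723 and 643 cpm in floxed and at 887, 872 and 229 cpm in H3atKO libraries, where floxed replicate 3 lay below H3atKO replicates 1 and 2. Per kilobase it was the most abundant of the 8 genes in both genotypes, at 1064 ± 793 against 357 ± 202 cpm per kilobase (SD, n = 3 each). In limma voom the fit put *Cidec* at -1.49 on the log2 scale (SE 0.73, 95% interval -3.20 to 0.21, adjusted p = 0.152). With the replicate block the adjusted p was 0.00604, and without floxed replicate 3 the log2 fold change was -2.14 (adjusted p = 0.0379). GC-corrected, the estimate was 0.14 (95% interval -0.82 to 1.09, adjusted p = 0.841), or 0.13 with the block as well (95% interval -0.40 to 0.66).

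Of the 2 ER proteins, *Bscl2* (ENSMUSG00000071657, chromosome 19, 8837467 to 8848683) was at 139, 79.1 and 52.5 cpm in floxed and at 35.3, 49.97 and 22.0 cpm in H3atKO libraries. Every H3atKO library was lower, as for 28.5% of all tested genes, the nearest pair being 52.5 and 49.97 cpm. In limma voom the fit put *Bscl2* at -1.28 on the log2 scale (SE 0.45, 95% interval -2.32 to -0.23, adjusted p = 0.0750), and with the replicate block it was -1.31 (adjusted p = 0.0129). GC-corrected, the estimate was -0.85 (adjusted p = 0.165), and the groups overlapped. *Fitm2* (ENSMUSG00000048486, chromosome 2, 163466379 to 163472629) was at 233, 203 and 149 cpm in floxed and at 186, 246 and 163 cpm in H3atKO libraries, and neither group stood above the other. The limma estimate was 0.03 on the log2 scale (SE 0.27, 95% interval -0.61 to 0.67, adjusted p = 0.948) and 0.40 after the GC correction (95% interval -0.08 to 0.87, adjusted p = 0.222).

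Exons of *Bscl2*, *Fitm2* and *Plin4* overlap exons of a gene on the opposite strand, *Gng3* by 398 bp, *2310001K24Rik* by 227 bp and *Hdgfl2* by 17 bp. The libraries were stranded, but the strand setting of the counting is not given in the sources used here. *Gng3* received 4 to 54 and *2310001K24Rik* 6 to 20 reads per library, where *Bscl2* received 348 to 6334 and *Fitm2* 2571 to 10633. *Hdgfl2* received 14 to 792 reads where *Plin4* received 1876 to 322169. *Bscl2* also shares 239 bp of exon with *AC129217.1* on its own strand, a gene for which no count was analysed here, so that reads of the 2 cannot be told apart there.

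**Figure D3:**
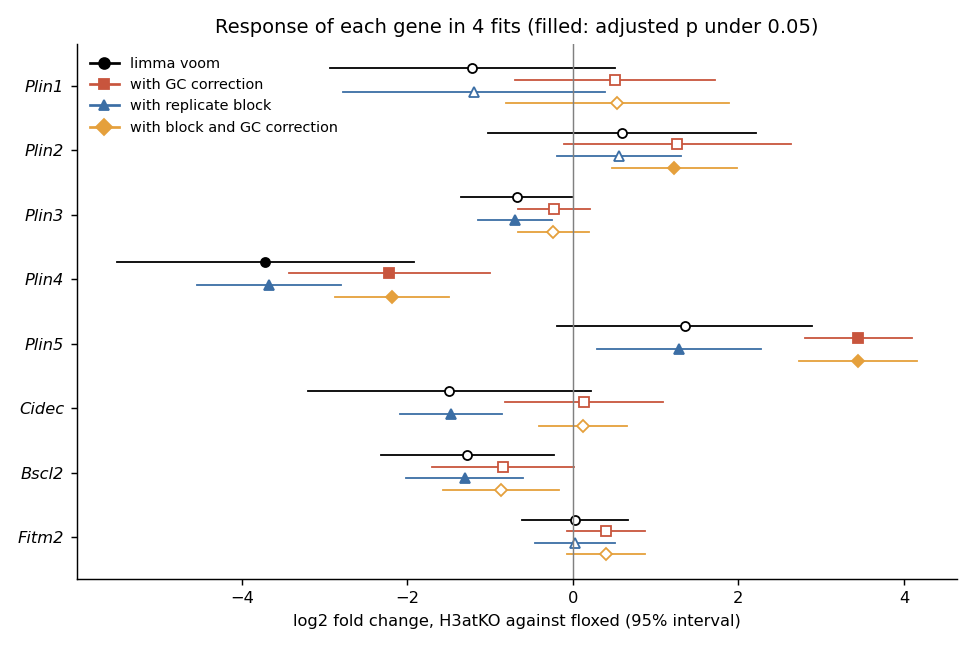
Log2 fold change of each gene, H3atKO against floxed, with its 95% interval, from limma voom, with the GC correction, with the replicate block and with both (filled symbols, adjusted p under 0.05). *Plin4* is below 0 and called in all 4 fits, *Plin5* is above 0 and called in 3, and *Plin1* and *Cidec* cross 0 with the GC correction.

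The order of the levels per kilobase was *Cidec*, *Plin4*, *Plin2*, *Plin1*, *Fitm2*, *Bscl2*, *Plin5* and *Plin3* in floxed libraries, by the mean of 3. In H3atKO libraries it was *Cidec*, *Plin2*, *Plin4*, *Fitm2*, *Plin5*, *Plin1*, *Bscl2* and *Plin3*. The place of *Plin5* before *Plin1* there depends on the length used. All annotated exons together have 2087 bp for *Plin5* and 4649 bp for *Plin1*, and the longest transcripts 1986 and 2817 bp. In floxed libraries the ranges of neighbours in this order were apart only for *Fitm2* and *Bscl2*. In H3atKO libraries they were apart only for *Fitm2* and *Plin5* and for *Plin1* and *Bscl2*. Such ranges leave out that the levels of 1 library belong together. Within a library, *Cidec* was above *Plin4*, *Plin4* above *Plin2*, *Plin2* above *Plin1* and *Bscl2* above *Plin5* in 3 of 3 floxed libraries. *Cidec* was above *Plin2*, *Plin2* above *Plin4* and *Bscl2* above *Plin3* in 3 of 3 H3atKO libraries. The order held in 2 of 3 floxed libraries for *Plin1* over *Fitm2* and for *Plin5* over *Plin3*. It held in 1 of 3 H3atKO libraries for *Plin4* over *Fitm2* and in 2 of 3 for *Plin5* over *Plin1*.

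Set against *Plin1* within each library, *Plin4* and *Plin5* were the only ones of the other 7 genes whose uncorrected log2 ratios did not overlap between the genotypes. After the GC correction *Bscl2* did not overlap either, with a difference of -1.38 against -0.08 before it. The ratio of *Plin4* to *Plin1* was 3.83 ± 0.309 in floxed and 1.33 ± 0.903 in H3atKO libraries on the log2 scale, and that of *Plin5* was -3.63 ± 0.599 and -1.07 ± 0.786 (SD, n = 3 each). Each had p = 0.1 in the exact permutation test and 0.35 after Benjamini-Hochberg adjustment over the 7 ratios. The ratio of *Cidec* to *Plin1* was 2.77 ± 0.408 in floxed and 2.49 ± 1.18 in H3atKO libraries (SD, n = 3 each, exact permutation p = 0.9). The mean log2 level of 13 other mature adipocyte markers served as another reference, which includes *Lpl*, called higher, and *Cfd*, called lower. Against it *Plin4* differed by -3.07 and *Plin5* by 1.99, again without overlap, and *Fitm2* by 0.67 without overlap. After the GC correction these differences were -1.77, 3.90 and 0.85, and those of *Plin1* and *Plin2* were 0.96 and 1.72, all 5 without overlap. Before it *Plin1* had been at -0.57 and *Plin2* at 1.25, both with overlap. How many of all tested genes would separate on ratios to *Plin1* or to these markers was not counted. By uncorrected level, 23.3% of all tested genes lay above and 28.5% below in every H3atKO library.

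**Figure D4:**
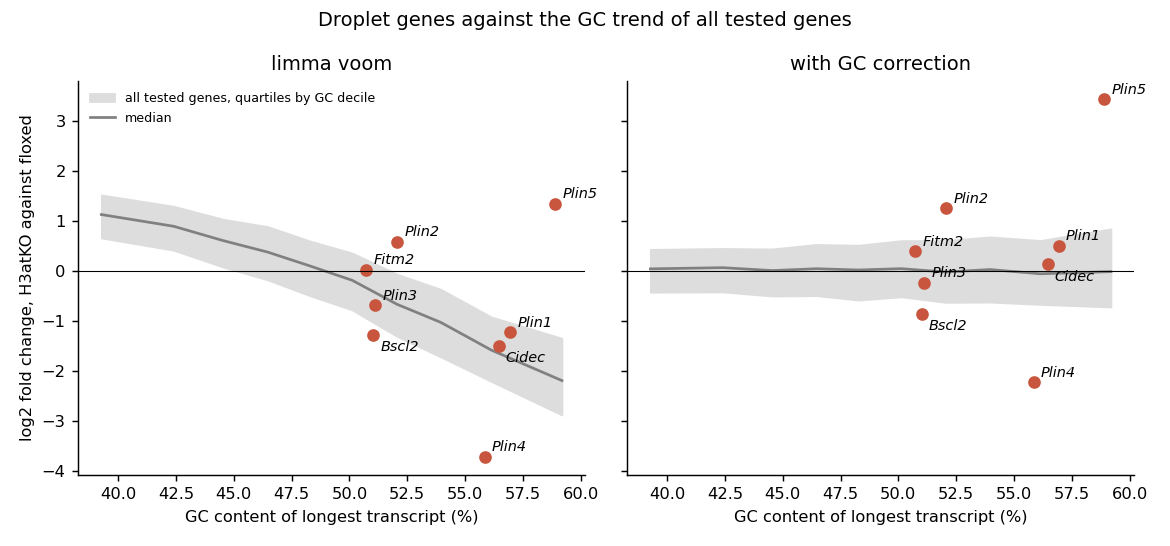
Log2 fold change, H3atKO against floxed, of the 8 genes (points) against the GC content of their longest transcript, over the median and quartiles of all tested genes by decile of GC content, before and after the GC correction. *Plin4* and *Bscl2* lie below and *Plin2* and *Plin5* above the quartiles of all genes in both panels, while *Plin1*, *Plin3*, *Cidec* and *Fitm2* lie inside them.

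Markers of other cell types were set beside these values. By the mean log2 level of a list, brown adipocyte markers were higher in every H3atKO library, and stromal progenitor, endothelial, smooth muscle and Schwann markers were lower (exact permutation p = 0.1 each, n = 3 each), and their part in the results was not tested. Of the 10 brown adipocyte markers, 9 were tested and limma called 2 upregulated, *Dio2* and *Elovl3*, where 9.42% of all genes were called higher. The 10 markers together were at 189 to 297 cpm in floxed and at 501 to 1314 cpm in H3atKO libraries. By replicate this sum was 297, 189 and 208 cpm in floxed and 1314, 792 and 501 cpm in H3atKO libraries. Of the H3atKO sums, *Elovl3* gave 722, 283 and 172 cpm and *Adrb3* 152, 371 and 168 cpm. *Prdm16* and *Cox7a1* had estimates below 0, at -1.21 (limma, adjusted p = 0.0785) and -0.28 (0.780). *Prdm16* fell without overlap, from 13.3, 10.5 and 6.39 to 4.49, 3.26 and 4.99 cpm. *Ucp1*, the defining uncoupling protein of brown adipocytes, was at 12.6, 0.577 and 3.33 cpm in floxed and at 158, 1.33 and 11.5 cpm in H3atKO libraries. The 10 macrophage markers, whose cells also express *Plin2*, summed to 624, 458 and 2551 cpm in floxed and to 669, 395 and 677 cpm in H3atKO libraries. The 8 skeletal muscle markers, a tissue with *Plin5*, *Plin4* and *Plin2* of its own, summed to 935, 560 and 3071 cpm in floxed and to 530.0, 4670 and 16.6 cpm in H3atKO libraries. *Plin5* in the same libraries was at 48.9, 15.8 and 8.53 cpm in floxed and at 57.6, 72.0 and 25.6 cpm in H3atKO, and a part of muscle in it was not tested. Summed levels in floxed and H3atKO libraries were 614 to 1042 and 405 to 541 cpm for 7 endothelial markers, 360 to 1379 and 483 to 749 for 5 smooth muscle and pericyte markers, and 94.5 to 121 and 45.3 to 64.8 for 5 Schwann and nerve markers. They were 3.82 to 129 and 3.72 to 435 cpm for 6 B cell markers and 4.64 to 51.4 and 13.8 to 147 for 6 T cell markers. The 6 mammary epithelium markers, each at 0 in at least 1 library, reached at most 8.98 cpm.

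Other genes of droplet biology were taken from 3 lists. Of 27 genes of droplet formation at the ER, all tested, limma called 4 upregulated and 1 down-regulated, against 9.42% and 7.07% of all tested genes. The median log2 fold change of the list was 0.13, against -0.09 for all tested genes. *Acsl3*, an acyl-CoA ligase that moves to nascent droplets, rose from 23.1 ± 6.31 to 170.7 ± 55.6 cpm (SD, n = 3 each), or by 2.87 on the log2 scale (limma, adjusted p = 0.00887). *Rab18*, a small GTPase of the droplet surface, rose by 1.98 (adjusted p = 0.0192) and *Tmem41b*, an ER lipid scramblase, by 1.24 (adjusted p = 0.0428) on the log2 scale, the latter at 0.37 after the GC correction (adjusted p = 0.279). *Lpin1*, a phosphatidate phosphatase, rose by 0.98 (adjusted p = 0.0347) and is named because it is the fourth gene called. *Aup1*, a ubiquitin pathway protein of ER and droplet, was down-regulated, at -2.19 on the log2 scale (adjusted p = 0.0475), but at -0.04 after the GC correction (adjusted p = 0.924). After that correction *Acsl3*, *Rab18*, *Lpin1* and *Agpat2*, an acyltransferase of phosphatidate synthesis, were called higher and 0 lower, against 5.55% and 3.06% of all tested genes. *Agpat2* was then at 1.67 (limma, adjusted p = 0.0310), against -0.27 uncorrected. *Agpat2* was named after its values had been seen. With the replicate block and no correction, 7 were called higher and 2 lower, against 24.8% and 28.7% of all tested genes.

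**Figure D5:**
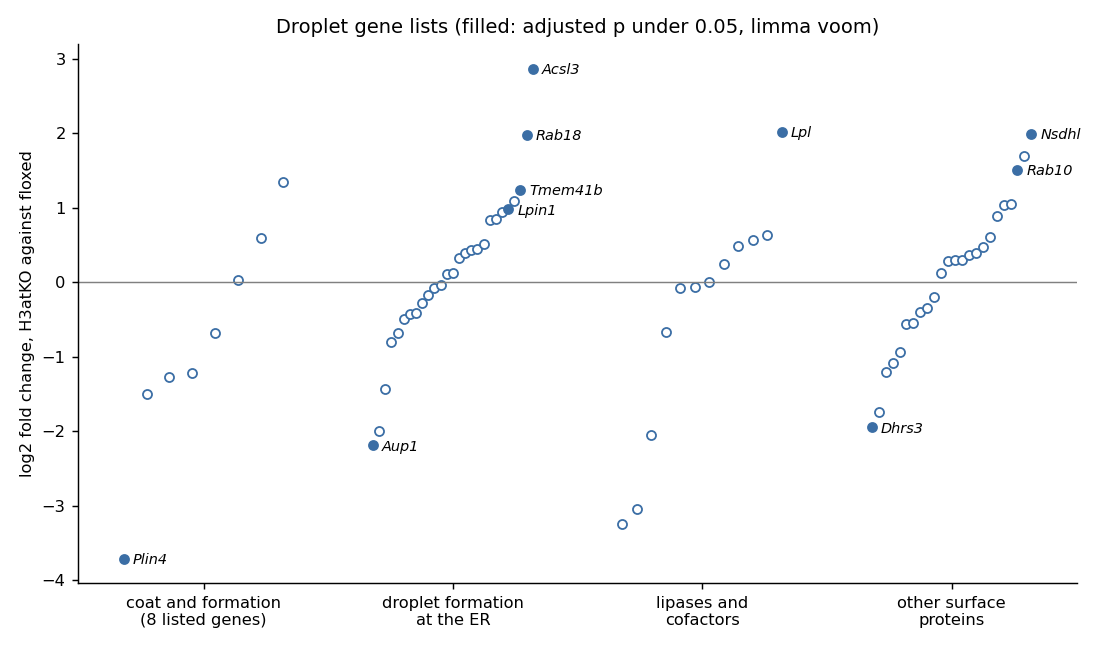
Log2 fold change, H3atKO against floxed, of the 8 genes and of the tested genes of 3 further droplet lists, ordered within each list (filled, adjusted p under 0.05 from limma voom). The filled points outside the 8 genes run from -2.19 (*Aup1*) to 2.87 (*Acsl3*).

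Of 12 lipases and their cofactors, all tested, limma called 1 upregulated and 0 down-regulated, against 9.42% and 7.07% of all tested genes. At an unadjusted p under 0.05 these were 2 and 3, against the 20.4% and 23.4% given above. By edgeR 1 was upregulated and 2 were down-regulated (all genes, 12.8% and 18.4%), and these were 2 and 3 both by DESeq2 (19.7% and 23.2%) and under the replicate block in limma (24.8% and 28.7%). The median log2 fold change of the list was -0.03. The gene called was *Lpl*, a secreted lipase that acts in the capillary and not on the droplet, which rose from 9235 ± 1312 to 39849 ± 16336 cpm (SD, n = 3 each), or by 2.02 on the log2 scale (limma, adjusted p = 0.0253). The GC correction left it at 1.297 (adjusted p = 0.0532), so that no gene of the list was called. Both main lipases of the adipocyte droplet missed limma's threshold: *Lipe* (hormone-sensitive lipase) was at -3.04 on the log2 scale (adjusted p = 0.0524) and *Pnpla2* (adipose triglyceride lipase) at -2.06 (adjusted p = 0.0909). After the GC correction they were at -1.60 (adjusted p = 0.133) and -0.31 (adjusted p = 0.652). *Abhd5*, the coactivator of *Pnpla2* that *Plin1* holds, was at 0.64 on the log2 scale (adjusted p = 0.0663). The largest change of the list was in *G0s2*, at -3.25 (limma, adjusted p = 0.109), though its groups overlapped. GC-corrected, *G0s2* was at -1.66 (adjusted p = 0.292). The 2 genes that edgeR called lower were *Lipe* (adjusted p = 0.0318) and *G0s2* (0.0306), and *Pnpla2* was not called (0.0541). Under the replicate block in limma, adjusted p-values were 0.00440 for *Lipe*, 0.00881 for *Pnpla2*, 0.00873 for *G0s2* and 0.0249 for *Abhd5*. *Lipe*, *Pnpla2*, *G0s2* and *Abhd5* were named after their values had been seen.

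Of 26 other proteins of the droplet surface, 24 were tested. In limma 2 were upregulated and 1 was down-regulated, against 9.42% and 7.07% of all tested genes. The replicate block made these counts 5 and 6, against 24.8% and 28.7%. The median log2 fold change of the list in limma was 0.29. *Nsdhl*, an enzyme of cholesterol synthesis found on droplets, rose by 2.00 (adjusted p = 0.0157) and *Rab10* by 1.52 (adjusted p = 0.0227) on the log2 scale. *Dhrs3*, a retinal reductase, went from 141 ± 45.0 to 36.1 ± 10.7 cpm (SD, n = 3 each), which is -1.95 on the log2 scale (limma, adjusted p = 0.0226). *Cidea*, the relative of *Cidec* that brown adipocytes use, was at 43.1, 13.4 and 28.6 cpm in floxed and at 173, 64.8 and 49.6 cpm in H3atKO libraries, without overlap. Its log2 fold change was 1.70 (adjusted p = 0.0707 from limma), with the replicate block the adjusted p was 0.00773 and after the GC correction the log2 fold change was 3.14 (adjusted p = 0.0228). *Cidea*, which also stands in the brown adipocyte list, was named after its values had been seen.

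The tested genes nearest to each of the 8 in their pattern over the 6 libraries were found among those with a mean of at least 10 cpm, by the root mean square distance of centred log2 cpm. *Plin4* lay nearest to *Tns2* (distance 0.15, log2 fold change -3.62) and *Mgst3* (0.19, -3.98). *Plin5* lay nearest to *Marc1* (0.22) and *Pgd* (0.36), and *Plin2* to *Cox8b* (0.35). *Plin1* lay nearest to *Actn4* (0.19), *Cidec* to *Aldh2* (0.12), *Bscl2* to *Lamtor1* (0.11), *Plin3* to *Acox3* (0.07) and *Fitm2* to *Inpp5a* (0.06). Among the 8 themselves, *Plin2* and *Plin5* were each other's nearest (0.55), the member nearest to both *Plin1* (0.64) and *Cidec* (0.50) was *Bscl2*, and *Plin4* was 1.17 from its nearest, *Cidec*. The distances are descriptions of 6 libraries and carry no test.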

How the data were processed

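Total RNA of IngWAT was pooled from mice of 1 genotype per library, and 6 stranded libraries, 3 floxed and 3 H3atKO, were grouped by their labels. The authors trimmed reads with cutadapt 1.3, aligned them to GRCm38 with STAR 2.4.2a and counted them per Ensembl gene with HTSeq 0.6.1, and the raw counts were deposited without normalization. Of the alignments, 37.3 to 44.0% in floxed and 50.35 to 51.7% in H3atKO libraries were given to no gene. These rows stayed out of library sizes and tests. This difference between libraries and an effect of genotype cannot be told apart. The labels do not say how the animals were assigned to pools, and p-values measure the spread between these pools. Of 46517 identifiers, 46005 had a symbol and position in the GENCODE annotation used here.

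Counts were scaled by TMM factors, which were 1.3 to 1.37 in floxed and 0.663 to 0.921 in H3atKO libraries. They were tested with limma 3.58.1 (voom) in R 4.3.3 on the 14967 genes that reached 1 cpm of the unscaled library total in 1 or more samples. Benjamini-Hochberg adjustment and a threshold of 0.05 were used. The code was tested on simulated data. The GC correction was a loess fit per library (span 0.3). Same-numbered floxed and H3atKO libraries deviated together from their group means (r = 0.51, 0.389 and 0.264). The differently numbered pairs lay between -0.295 and -0.0516. Centring on group means ties these values to the same-numbered ones, so they are no separate evidence of pairing. The labels state no pairing of samples. The replicate block is therefore an assumption drawn from these same data, and it is given where it changes a call. Alternatives were edgeR 4.0.16, DESeq2 1.42.0, other scalings, filters and weights, the block, the GC correction and leaving out each library. Members and lists were chosen with earlier results of these data known. Named are the 8 genes, *Hdac3*, in each list the called genes with the largest change (at most 3 in each direction) and the 2 nearest genes of each member, of which the nearest are printed. Promoter windows and their sequences are from RefSeq.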

Additional observations from a re-analysis of the deposited data

How the results depend on the processing

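The *Plin4* estimate kept its direction in every alternative run, and its call in all but 4 that leave out 1 library. Of the 8 genes, the count called lower was 1 in the fit reported, 3 with DESeq2, 5 with library sizes alone, 5 with sample quality weights, 2 at an adjusted p under 0.1, and from 0 to 4 with 1 library left out. With the replicate block it was 4, and the count called higher, 0 in the fit reported, was 1 with the replicate block, 1 with the GC correction, 2 with both and 1 with sample quality weights. The block changed no other call among the 8 genes. The GC correction turned the log2 estimate to 0.51 for *Plin1* and 0.14 for *Cidec*, or 0.53 and 0.13 with the block. Library sizes alone turned it to -0.25 for *Plin2* and -0.82 for *Fitm2*. *Fitm2*, near 0, was also at -0.089 with at least 10 counts in every sample, at -0.085 with no filter, and from -0.19 to 0.16 with 1 library left out. The log2 ratio of *Plin3* to *Plin1* differed by -0.75 after the GC correction, by -0.051 against adipocyte markers, and by -0.074 to 1.298 with 1 library left out. Those of *Cidec* and *Bscl2* ranged from -0.81 to 0.35 and from -0.44 to 0.47 with 1 library left out, and that of *Fitm2* was -0.12 after the GC correction. The cause was not tested. The GC correction moved the share difference by more than 1 pooled SD for *Plin2* (from 49.3 to 37.2 percentage points) and *Plin5* (from 6.39 to 10.01) and by less for *Plin4*, and leaving out 1 library moved each of the 3 by less. Depth was no limit for the 8 genes, whose lowest count was 219, and 3 libraries a group limit the precision.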
